A study of Mus musculus with 8 samples.

Results

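The genes described here encode enzymes of glycolysis: Hk1, Hk2, Gpi1, Pfkl, Pfkp, Aldoa, Tpi1, Gapdh, Eno1 and Pkm. They were listed by name, without a rule on measured values. Each gene was represented by the body of its longest protein-coding transcript in GENCODE release M21, from the transcription start site (TSS) to the transcription end site (TES), in mm10 coordinates. They were 10 of 21853 protein-coding genes. All 10 were also among the 8766 marked genes, which had at least 4 exons and at least 10% of the body inside a peak in at least 1 library. The marked genes were drawn from 16332 protein-coding genes with at least 4 exons and serve below as the background.

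Glycolysis splits glucose into pyruvate in the cytosol and yields ATP without oxygen. Its enzymes are abundant in proliferating cells, and pluripotent cells are known for a high glycolytic rate. H3K36me3 is trimethylation of histone H3 at lysine 36. In mammals it is written by SETD2, which travels with elongating RNA polymerase II, so the mark lies along the bodies of transcribed genes and usually builds up towards the 3′ end. SETD2 takes the methyl group from S-adenosylmethionine, whose supply depends on vitamin B12 through methionine synthase.

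The cells were i4F MEFs, mouse embryonic fibroblasts from an embryo at E13.5. All of them carry a doxycycline-inducible cassette of OCT4, SOX2, KLF4 and MYC (OSKM), the controls included. Cells of 1 embryo, named Clone 1 in the labels and MEF 1 in the study, were kept for 72 h in iPSC medium in 4 conditions. These were no addition (MEF), 2 µM vitamin B12 (MEF B12), doxycycline (OSKM), and doxycycline with 2 µM vitamin B12 (OSKM B12). The labels give doxycycline as 1 µg/ml and the methods of the study give 1 mg/ml. Each condition had 1 H3K36me3 ChIP–seq library and 1 input library, so differences between conditions could not be set against replicates and are given with no p-value.

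Depth lay between 29046913 and 33399267 H3K36me3 tags of 75 bases. OSKM was the deepest library and had the smallest part of the genome in peaks, 92.8 Mb against 153.7 to 165.9 Mb in the other 3. The bodies of 6 fibroblast genes (Col1a1, Col1a2, Col3a1, Pdgfrb, Thy1 and Vim) were covered by peaks over 34.0% to 99.4% in all 4 libraries. Ptprc, Pecam1, Epcam, Alb and Sox10, markers of other cell types, had no peak in any library. The neuronal marker Tubb3 was covered over 25.1% in MEF, 31.7% in MEF B12 and 25.6% in OSKM B12, and had no peak in OSKM. The pluripotency genes Nanog and Dppa5a had no peak, and Zfp42 was covered over 2.42% in OSKM only.

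Values are given on 2 scales. The covered share is the percentage of gene-body bases inside peaks. The scaled pileup is the authors' mean pileup of a peak, the number of extended fragments over a base, per 1000000 tags of the library. The density of a gene is the scaled pileup summed over its bases in peaks and divided by the length of its body, so that genes of different length can be compared. Bases outside peaks count as 0. Intervals for densities and their ratios are 95% intervals from the estimated number of tags. They cover counting error only. The spread between cultures, or between immunoprecipitations, is not in them.

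2 sequence features of these genes bear on how the values can be read. The first concerns Pkm, which encodes pyruvate kinase M. Its transcripts use either of a pair of neighbouring exons, which gives the M1 and M2 forms of the enzyme, and M2 is known as the form of embryonic and proliferating cells. Exon 9 lies at chr9:59675029-59675195 and exon 10 at chr9:59675568-59675734, both on the plus strand of mm10. The exons are shown 5′ to 3′ with the bases that differ between them in capitals. Both are 167 bases long, and 103 bases are the same and 64 differ, an identity of 61.7%.
Pkm exon 9: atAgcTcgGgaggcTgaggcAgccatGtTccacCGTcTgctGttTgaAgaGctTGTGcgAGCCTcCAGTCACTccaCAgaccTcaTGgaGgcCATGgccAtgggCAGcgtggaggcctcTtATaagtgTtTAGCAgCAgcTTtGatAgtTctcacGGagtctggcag
Pkm exon 10: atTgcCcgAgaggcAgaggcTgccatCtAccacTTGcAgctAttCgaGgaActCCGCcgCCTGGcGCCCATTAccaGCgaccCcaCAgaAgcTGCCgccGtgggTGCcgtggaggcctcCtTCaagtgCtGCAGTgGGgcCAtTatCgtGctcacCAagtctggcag
All 75-base stretches of both exons were found once in the genome by exact match, so neither exon was closed to tags by an exact copy elsewhere. In each library, a single peak covered 100% of both exons. The scaled pileup of that peak, its height as defined above, was 0.847 in MEF and 1.03 in MEF B12, against 0.628 in OSKM and 1.07 in OSKM B12. A single value is deposited per peak, so the 2 exons could not be compared with each other in these lists.

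The second feature concerns Gapdh, the glyceraldehyde-3-phosphate dehydrogenase gene, which has many processed pseudogenes in the mouse genome. The aligner kept only reads with a single placement, so a stretch of tag length that occurs elsewhere in the genome cannot contribute tags. None of the 788 stretches of 75 bases that lie wholly inside Gapdh exons was found once, and the most repeated had 49 copies. The longest such run lies in coding exon 3, at chr6:125163139-125163436 on the minus strand of mm10, and is 298 bases long. Its stretches had a median of 17 copies. It is shown 5′ to 3′ with the stretch of the most copies, 43, in capitals.
Gapdh exon 3: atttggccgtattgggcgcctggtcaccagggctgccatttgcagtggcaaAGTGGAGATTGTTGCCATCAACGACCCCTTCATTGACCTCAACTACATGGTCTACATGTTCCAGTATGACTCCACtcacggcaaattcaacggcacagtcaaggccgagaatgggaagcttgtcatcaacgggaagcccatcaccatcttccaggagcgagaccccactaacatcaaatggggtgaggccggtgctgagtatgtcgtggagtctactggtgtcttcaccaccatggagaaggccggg
Introns and exon edges still left 82.0% of the stretches of the whole Gapdh body with 1 match. Among the other genes, the share of exonic stretches with 1 match was 41.5% for Eno1, 75.03% for Pkm, 82.5% for Tpi1, 90.4% for Gpi1 and 98.8% for Aldoa. It was 100% for Hk1, Hk2, Pfkl and Pfkp. Over whole bodies the lowest values were 82.0% for Gapdh and 90.4% for Pfkp.

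**Figure D1:**
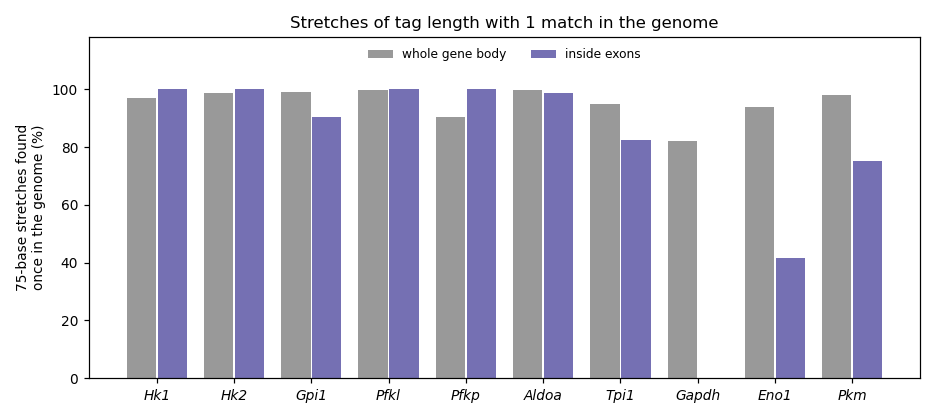
Share of 75-base stretches (%) with exactly 1 match in the genome, for each gene over the whole body (grey bars) and inside exons (purple bars). Gapdh has no exonic stretch with 1 match, and Hk1, Hk2, Pfkl and Pfkp are at 100% inside exons.

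The pathway begins with the hexokinases, which trap glucose in the cell as glucose 6-phosphate. Hk1, the widely expressed form, spans 110.8 kb at chr10:62269104-62379908 on the minus strand. Its density was 0.135 in MEF and 0.155 in MEF B12, against 0.0786 in OSKM and 0.174 in OSKM B12. Its covered share was 26.5%, 27.3%, 18.9% and 27.5% in the same order. Hk1 was therefore lowest in OSKM by both scales, and its covered share in the other 3 libraries spanned 1.03 percentage points. The mark sat in the 3′ part of the gene. The first peak began 46.2 kb from the TSS in MEF, 35.4 kb in MEF B12, 64.8 kb in OSKM and 62.1 kb in OSKM B12, and 12 to 14 peaks followed each other from there to the TES.

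Hk2, the inducible hexokinase, spans 49.4 kb at chr6:82725025-82774454 on the minus strand. Its density was 0.0940 in MEF and 0.158 in MEF B12, against 0.0437 in OSKM and 0.137 in OSKM B12. Covered shares were 21.8%, 33.1%, 11.1% and 27.0%. OSKM was again the lowest library, and MEF B12 was the highest. The first peak lay 22.5 kb from the TSS in MEF and 30.7 kb in OSKM, against 15.6 kb in MEF B12 and 14.2 kb in OSKM B12. The first peak was thus nearer the TSS in both libraries with vitamin B12. It was short there, 0.710 kb in MEF B12 and 0.617 kb in OSKM B12, as it was in MEF, with 0.346 kb. The next peak began at 31.3 kb in MEF and 36.8 kb in OSKM, against 25.3 kb in MEF B12 and 25.7 kb in OSKM B12. The next peak was thus also nearer the TSS in both libraries with B12, though farther from it than the first MEF peak at 22.5 kb.

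Glucose 6-phosphate is turned into fructose 6-phosphate by the product of Gpi1, at chr7:34201330-34230336 on the minus strand. Gpi1 had the highest covered share of the 10 genes, 94.4% in MEF and 94.3% in MEF B12, against 76.2% in OSKM and 93.9% in OSKM B12. Its density was 0.707, 0.831, 0.401 and 0.905 in that order, and 96.4% of the marked genes had a lower density in MEF. A single peak of 27.8 to 28.1 kb spanned the gene from 1.63 to 1.78 kb behind the TSS to beyond the TES in MEF, MEF B12 and OSKM B12. In OSKM the same stretch was split into 9 peaks of 0.564 to 7.35 kb. Of the OSKM peak bases in Gpi1, 100% lay inside the MEF peak.

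Phosphofructokinase commits the sugar to glycolysis. Pfkl, which encodes the liver-type subunit, lies at chr10:77986947-78009807 on the minus strand. Its density was 0.310 in MEF and 0.408 in MEF B12, against 0.193 in OSKM and 0.447 in OSKM B12, with covered shares of 65.4%, 70.0%, 45.7% and 71.9%. The number of peaks was 5 in MEF and 1 in MEF B12, against 9 in OSKM and 1 in OSKM B12. The 2 libraries with vitamin B12 therefore had 1 continuous domain where the 2 without it had gaps.

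Pfkp, which encodes the platelet-type subunit, spans 69.0 kb at chr13:6579768-6648777 on the minus strand and carried the least signal of the 10 genes. Its density was 0.0503 in MEF and 0.0801 in MEF B12, against 0.0294 in OSKM and 0.0692 in OSKM B12. Covered shares were 9.30%, 16.1%, 7.07% and 12.2%. In MEF, 7.03% of the marked genes had a lower density. The largest Pfkp peak was the last one in every library, and it ran 5.55 to 5.64 kb past the TES into Pitrm1, a mitochondrial peptidase gene on the other strand. The 2 gene bodies share 748 bases, and Pitrm1 was covered over 75.4% to 89.3%. Signal over the 3′ end of Pfkp and signal of Pitrm1 cannot be told apart in these lists. The other Pfkp peaks were 0.292 to 2.17 kb long. Over the whole body, 46.3% of the OSKM peak bases lay inside MEF peaks, the smallest share among the 10 genes.

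Aldolase A, the product of Aldoa, cleaves fructose 1,6-bisphosphate into 2 triose phosphates. The gene spans 5.21 kb at chr7:126795235-126800447 on the minus strand. Its density was 0.399 in MEF and 0.478 in MEF B12, against 0.257 in OSKM and 0.571 in OSKM B12. Peaks covered 49.2%, 48.7%, 40.6% and 51.6% of its body in the same order. A single peak was called in each library. It began 2.52 to 3.10 kb from the TSS, about midway through the body, and ran 1.36 to 2.09 kb past the TES. Levels thus differed more between libraries than the covered share did. Fam57b on the opposite strand overlaps 53.3% of the Aldoa body and was covered over at most 1.58% of its own 32.5 kb. A second Ensembl gene also carries the symbol Aldoa. It lies at chr7:126800790-126809108, had no peak in any library and was not used for the values here.

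The product of Tpi1 interconverts the 2 triose phosphates. Tpi1 is the shortest of the genes, 3.71 kb at chr6:124810586-124814296 on the minus strand. Its density was 0.312 in MEF and 0.260 in MEF B12, against 0.122 in OSKM and 0.317 in OSKM B12. Covered shares were 54.7%, 44.5%, 31.3% and 50.3%. Its density was smaller in MEF B12 than in MEF, but the ratio of 0.831 had a counting interval of 0.638 to 1.08. The values rest on few tags, between 52.6 estimated tags in OSKM and 129.3 in MEF. The last peak ran 0.464 kb past the TES in MEF, 0.563 kb in MEF B12 and 0.457 kb in OSKM B12, into Spsb2 on the opposite strand. In OSKM it ended 0.680 kb before the TES. The Tpi1 and Spsb2 bodies share 34 bases. Signal over the 3′ end of Tpi1 and signal of Spsb2 cannot be told apart in these lists. In MEF B12 and in OSKM B12 the peak over the 3′ end was split by a gap inside exon 7. The share of stretches with 1 match in the genome was 70.0% in the gap and 94.2% inside the peaks in MEF B12, and 76.8% and 94.9% in OSKM B12. The part of repeated sequence in these gaps was not tested.

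Gapdh oxidizes the triose phosphate and is widely used as a reference gene. It spans 4.62 kb at chr6:125161853-125166467 on the minus strand. Its density was 0.261 in MEF and 0.366 in MEF B12, against 0.146 in OSKM and 0.379 in OSKM B12, with covered shares of 46.3%, 57.1%, 33.8% and 52.0%. Gapdh was near the middle of the marked genes in every library, with 46.4% to 53.6% of them at a lower density. In MEF and OSKM the signal was in 2 peaks. The gaps held 63.1% and 42.9% of stretches with 1 match, against 68.0% and 74.4% inside the peaks, and the part of repeated sequence in the gaps was not tested. The domain that began in Gapdh ran 9.50 kb past its TES in MEF, 11.6 kb in MEF B12 and 11.6 kb in OSKM B12, over the neighbouring gene Iffo1. In OSKM it ended 0.762 kb past the TES. A base takes the mean of its whole peak, so the Gapdh levels include signal over Iffo1. Signal of the 2 genes cannot be told apart in these lists. Iffo1 ends 0.071 kb from Gapdh and was covered over 67.2%, 72.5%, 49.6% and 78.6% of its body in MEF, MEF B12, OSKM and OSKM B12.

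Enolase, the product of Eno1, forms phosphoenolpyruvate. Eno1 lies at chr4:150236952-150248879 on the plus strand. Its density was 0.725 in MEF and 0.722 in MEF B12, against 0.422 in OSKM and 0.816 in OSKM B12, and covered shares were 79.1%, 72.0%, 72.0% and 75.6%. Its main peak stayed whole in all 4 libraries, at 10.4 to 11.2 kb long, and all OSKM peak bases inside the gene body lay in the MEF peak. The lower level in OSKM was therefore in the height of the peak, 0.586 scaled pileup against 0.916 in MEF, more than in its width.

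Pkm, the gene of the last step, lies at chr9:59656368-59679375 on the plus strand. Its density was 0.691 in MEF and 0.844 in MEF B12, against 0.436 in OSKM and 0.890 in OSKM B12. Covered shares were 81.6%, 81.7%, 75.3% and 82.8%. A single peak of 19.2 to 19.7 kb ran from intron 1 past the TES in MEF, MEF B12 and OSKM B12. In OSKM it was divided into 5 peaks, of which the longest, 12.9 kb, held the pair of alternative exons.

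**Figure D2:**
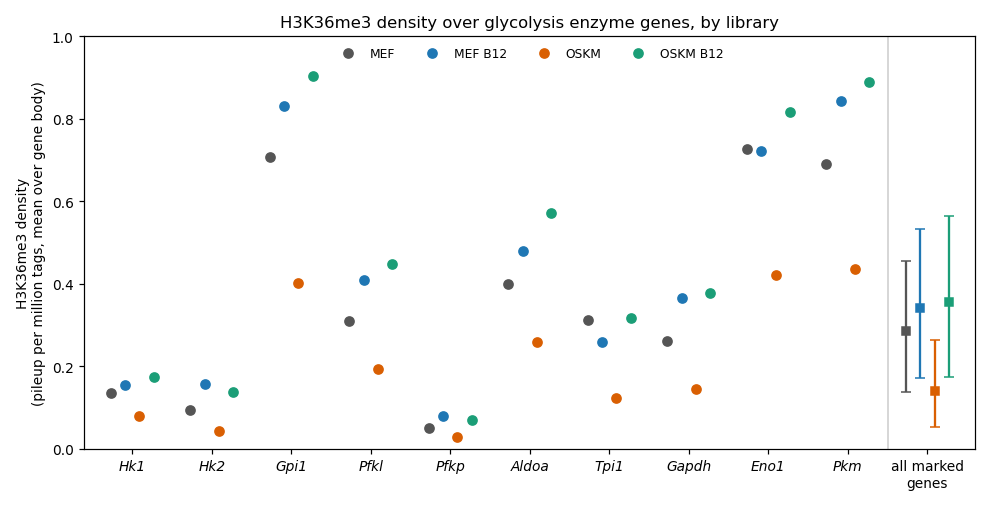
H3K36me3 density (scaled pileup averaged over the gene body, linear axis) of each gene in the 4 libraries (points). The squares at the right give the median of the 8766 marked genes, with bars from the lower to the upper quartile. For each gene the OSKM point is the lowest on this scale. After division by the median of the marked genes, however, 8 of the 10 genes are higher in OSKM than in MEF. The median log2 change of the marked genes is then 0.056. Gpi1, Eno1 and Pkm stand above the upper quartile of the marked genes in all 4 libraries.

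The order of the genes was nearly the same in each library. In MEF it ran Eno1, Gpi1, Pkm, Aldoa, Tpi1, Pfkl, Gapdh, Hk1, Hk2 and Pfkp. Eno1, Gpi1 and Pkm held the first 3 places in all 4 libraries, and their neighbouring counting intervals overlapped except between Gpi1 and Eno1 in MEF B12. Aldoa came next and Pfkp last in each. Tpi1, Pfkl and Gapdh shared the places between Aldoa and the hexokinases, with overlapping intervals between neighbours in each library. In MEF the interval was 0.263 to 0.371 for Tpi1, 0.289 to 0.332 for Pfkl and 0.220 to 0.309 for Gapdh. Hk1 and Hk2 differed beyond their intervals except in MEF B12. The median density of the 10 genes was 0.311 in MEF and 0.387 in MEF B12, against 0.170 in OSKM and 0.413 in OSKM B12, beside 0.286, 0.340, 0.141 and 0.357 over the marked genes. As a group the glycolysis genes thus stood close to the median marked gene, and the range within the group was far wider than the distance of its median from the background.

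Length went with part of this range. The 3 longest genes, Hk1, Hk2 and Pfkp, held the 3 lowest densities in all 4 libraries. Among marked genes, the median MEF density was 0.367 for bodies of 10 to 20 kb and 0.158 for bodies of 50 kb or more. Gapdh and Tpi1, of the 613 marked genes under 5 kb, compare with a median of 0.292 in that class. The hexokinase and phosphofructokinase genes had densities of 0.0503 to 0.310 in MEF, and the genes of the other steps had 0.261 to 0.725. Gpi1, of the step between these enzymes, had 0.707. The hexokinase and phosphofructokinase genes include the 3 longest, so step and length cannot be told apart here.

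**Figure D3:**
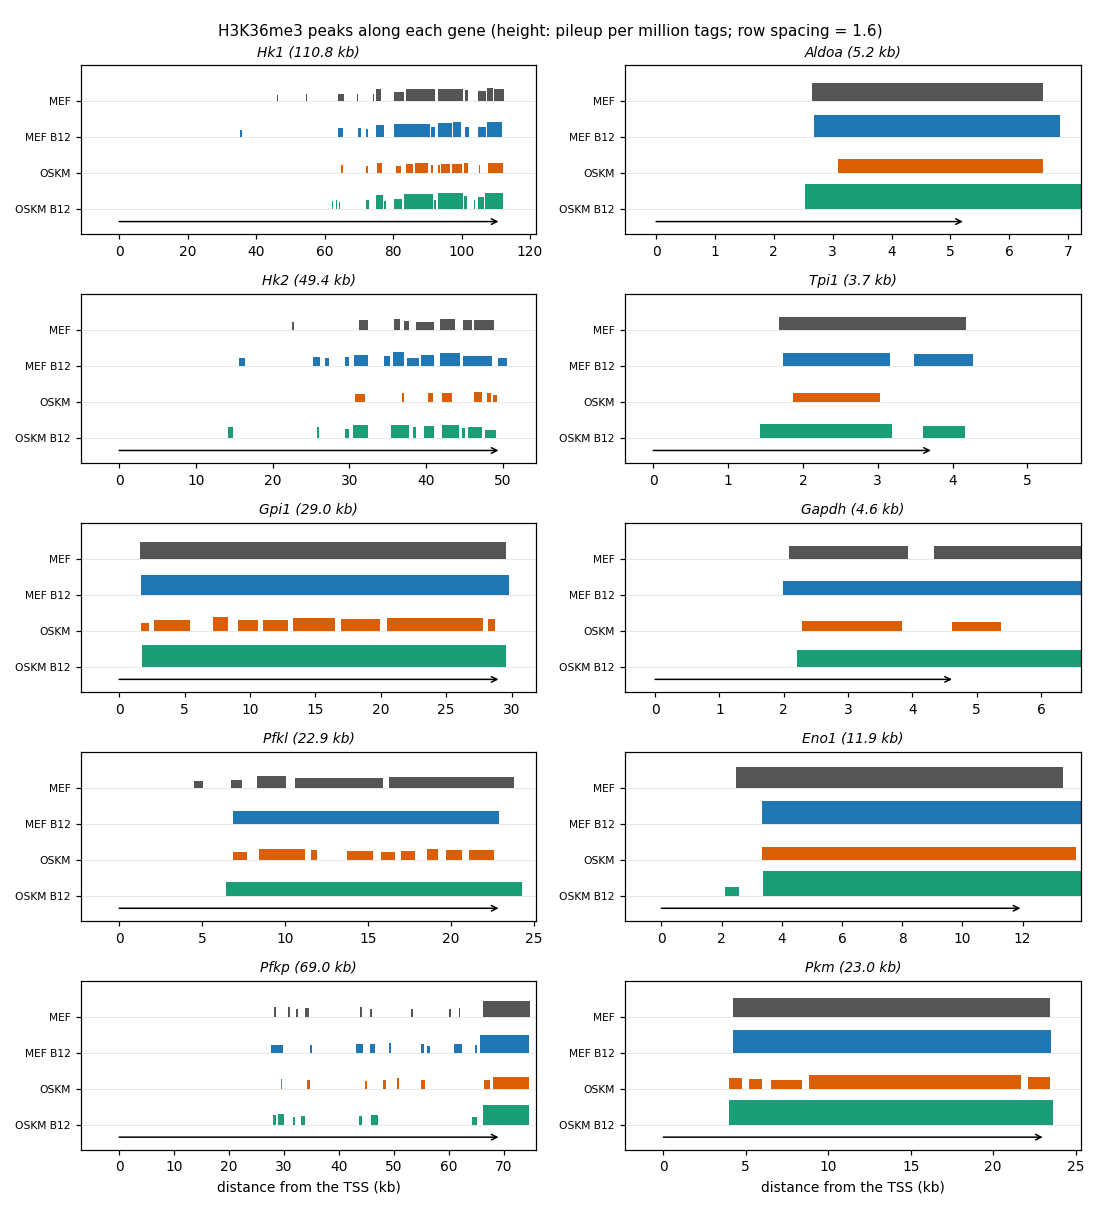
Peaks along each gene against the distance from the TSS (kb), 1 row per library, with the height of each block giving the scaled pileup (full row spacing is 1.6). Arrows mark the gene body from TSS to TES, and peaks that run beyond a panel are cut at its edge. Gpi1, Pfkl and Pkm show 1 block in MEF B12 and OSKM B12 and 5 to 9 blocks in OSKM.

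Along the body, the mark was sparse near the TSS. In MEF, the mean covered share of the 10 genes in 5 equal parts of the body was 8.10%, 34.0%, 61.0%, 78.1% and 83.0% from the TSS to the TES. Over the marked genes the same means were 13.2%, 39.1%, 55.0%, 65.3% and 72.1%. The glycolysis genes thus had less in the part at the TSS and more in the last 2 parts. In OSKM the last part was covered over 59.2% on average and the one before it over 72.4%, and over the marked genes the last part was the more covered of the pair, at 52.3% against 46.4%. Tpi1 and Gapdh had the lowest values in the last part in OSKM, 8.36% and 16.9%, against 100% and 56.9% in MEF. Both were covered over 100% in the part before it in OSKM, so the lower mean lay mostly in these genes. In OSKM, Hk1, Hk2 and Pfkp had a larger share in the last part than in the one before it. Gpi1, Pfkl and Pkm had a somewhat smaller one, and Aldoa and Eno1 had 100% in both.

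**Figure D4:**
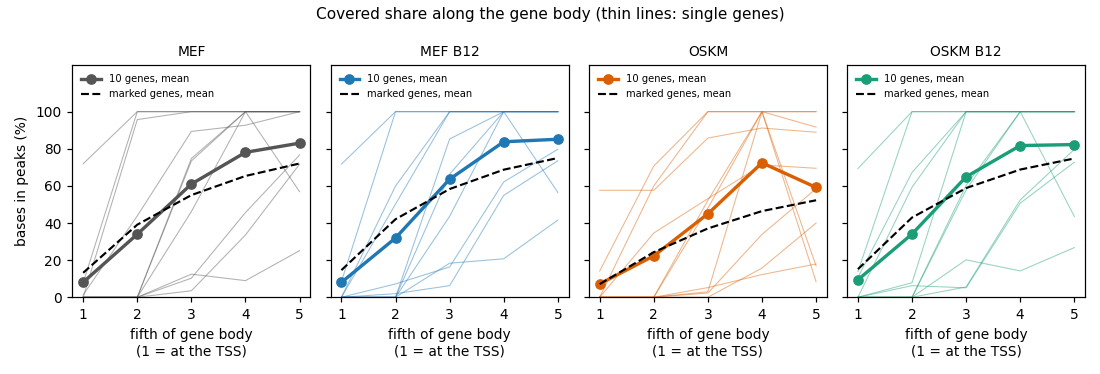
Share of bases in peaks (%) in 5 equal parts of the gene body, numbered from the TSS, in each library. Thin lines are the 10 genes, the thick line with points is their mean and the dashed line is the mean of the marked genes. The means climb towards the 3′ end, except that in OSKM the last part of the glycolysis genes, at 59.2%, is below the one before it. That lower mean lies mostly in Tpi1 and Gapdh.

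The distance from the TSS to the first peak had a median of 2.49 kb in MEF and 2.67 kb in MEF B12, against 3.10 kb in OSKM and 2.21 kb in OSKM B12 over the 7 genes with a body under 30 kb. Over marked genes of that length the medians were 2.89, 2.76, 3.54 and 2.66 kb. Both sets thus had their longest distance in OSKM and their shortest in OSKM B12, and the differences between libraries were within 1 kb. Over all 10 genes the medians were 3.45, 3.78, 3.65 and 3.24 kb in the same order, so the longest there was in MEF B12. Exons were more covered than introns. In MEF, 87.9% of exon bases and 24.3% of intron bases of Hk1 were in peaks, and for Pfkp the values were 59.3% and 6.11%. Exon bases had the larger share in 9 of the 10 genes in MEF, MEF B12 and OSKM B12 and in 8 in OSKM, beside 80.2%, 79.99%, 79.1% and 76.9% of the marked genes. Gpi1 was the exception in all 4 libraries, and Tpi1 in OSKM.

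OSKM against MEF asks how the mark changed when the factors were induced. All 10 genes had a lower density and a smaller covered share in OSKM. After division by the median density of the marked genes of each library, however, 8 of the 10 were higher and 2, Hk2 and Tpi1, lower. On that scale the median log2 change was 0.18 over the 10 genes, beside 0.056 over the marked genes. Whether fewer cells carried the mark, each cell carried less of it, or the immunoprecipitation differed between libraries cannot be told apart in these data. The median log2 change of density was −0.61, between −1.07 for Tpi1 and −0.34 for Pfkp. All log2 changes are of density plus 0.05, which pulls the values of genes with a low density towards 0. On this scale, 6 of the 10 were lower by at least 1.5-fold (Hk2, Gpi1, Tpi1, Gapdh, Eno1 and Pkm), beside 68.7% of the marked genes. The count depends on the amount added. By the plain ratio of densities all 10 were past 1.5-fold, beside 84.6% of the marked genes. With 0.2 added 2 were, beside 21.6% of the marked genes. The share among the glycolysis genes was thus near the background, and the median over the marked genes was −0.71. Relative to that shift, with 0.05 added, 7 of the 10 changed by less than the median marked gene and 3 by more, namely Gpi1, Tpi1 and Eno1. Which genes changed by more also depends on the amount added. By the plain ratio, only Hk2 and Tpi1 changed by more than the median marked gene. The other genes, Gpi1 and Eno1 among them, changed by less. With 0.05 added, 7 of the 10 changes lay between the quartiles of the marked genes, −0.92 and −0.54. Tpi1 lay below and Hk1 and Pfkp above them. The ratio of densities was 0.391 for Tpi1, with a counting interval of 0.284 to 0.539, and 0.632 for Pkm, with one of 0.587 to 0.680.

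The loss of covered bases was mostly a shrinking in place. Over the 10 genes, 93.0% of the OSKM peak bases lay inside MEF peaks, and 71.1% of the MEF peak bases were also in OSKM peaks. Over the marked genes these shares were 93.4% and 57.6%. On the bases in a peak in all 4 libraries, the median scaled pileup of the 10 genes was 0.645 in MEF and 0.716 in MEF B12, against 0.442 in OSKM and 0.806 in OSKM B12. A base there takes the mean of the whole peak it lies in, so these values compare peaks of unlike extent. The signal at the shared bases themselves is not in these lists. The ratio of OSKM to MEF there had a median of 0.735, beside 0.782 over 8258 marked genes with such bases. Eno1, with 0.640, and Pfkp, with 0.631, had the smallest ratios, and Hk2, with 0.898, and Pfkl, with 0.881, the largest. The Pfkp bases all lay within the last MEF peak, the one that runs into Pitrm1.

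OSKM B12 against OSKM asks what vitamin B12 changed in cells with the factors induced. All 10 genes had a higher density and a larger covered share with B12, and all 10 were past 1.5-fold, beside 95.2% of the marked genes. Pfkp met the 10% limit of the marked genes only in the libraries with B12, with 12.2% in OSKM B12 against 7.07% in OSKM. After division by the median density of the marked genes, 3 of the 10 (Hk2, Tpi1 and Gapdh) were higher with B12 and 7 were lower. On that scale the median log2 change was −0.13 over the 10 genes, beside −0.056 over the marked genes. Without that division, the median log2 change was 1.01, between 0.59 for Pfkp and 1.13 for Gapdh, and it was 0.98 over the marked genes. Nearly all marked genes thus differed in the same direction and by a similar size. The ratio was 2.60 for Gapdh, with a counting interval of 1.99 to 3.39, and 3.14 for Hk2, with one of 2.71 to 3.62. The Gapdh level in OSKM B12 was the mean of a peak of 14.0 kb, of which 2402 bases lay in Gapdh. The rest of that peak lay past the TES, over Iffo1. In OSKM the Gapdh level came mainly from a peak of 1.55 kb inside the gene. The Gapdh ratio and its interval thus do not rest on tags in Gapdh alone. Of the 10 changes, 8 lay between the quartiles of the marked genes, and Hk1 and Pfkp lay below. Of the OSKM peak bases, 96.2% lay inside OSKM B12 peaks. On the bases shared by all 4 libraries, the ratio of these peak means had a median of 1.72, beside 1.49 over the marked genes. It ran from 1.26 for Hk2 to 1.95 for Pfkp.

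MEF B12 against MEF asks what the vitamin changed without the factors. The density was higher with B12 in 8 of the 10 genes and lower in Tpi1 and Eno1, and with 0.05 added 0 were past 1.5-fold, beside 3.45% of the marked genes. By the plain ratio 2 were, Hk2 and Pfkp, the latter with 1.59, beside 8.80% of the marked genes. Pfkp, listed by name, was marked only through MEF B12 and OSKM B12, where 16.1% and 12.2% of its body was covered. It thus met that limit through libraries where it was high. After division by the median of the marked genes, 6 were higher and 4 (Hk1, Gpi1, Tpi1 and Eno1) lower. On that scale the median log2 change was 0.0203 over the 10 genes, beside −0.0027 over the marked genes. Without that division, the median log2 change was 0.25, beside 0.21 over the marked genes. Hk2 had the largest, 0.53, with a ratio of 1.68 and a counting interval of 1.502 to 1.88, and 95.3% of the marked genes changed by less. Tpi1 and Eno1, at −0.23 and −0.01, were below the lower quartile of the marked genes, 0.13, and Hk2, Pfkl, Pfkp and Gapdh were above the upper one, 0.29. The other 4 genes lay between them. On the bases shared by all 4 libraries, the ratio of the peak means was above 1 in all 10 genes. It was 1.03 for Tpi1 and 1.09 for Eno1, so the lower densities of both went with a smaller covered share. The B12 change was larger with the factors than without in all 10 genes, as it was in 98.0% of the marked genes, and this difference was not tested. After division by the median of the marked genes it was larger in Tpi1 and smaller in the other 9, and larger in 43.9% of the marked genes. These 3 comparisons share libraries, so their values are not independent of each other.

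**Figure D5:**
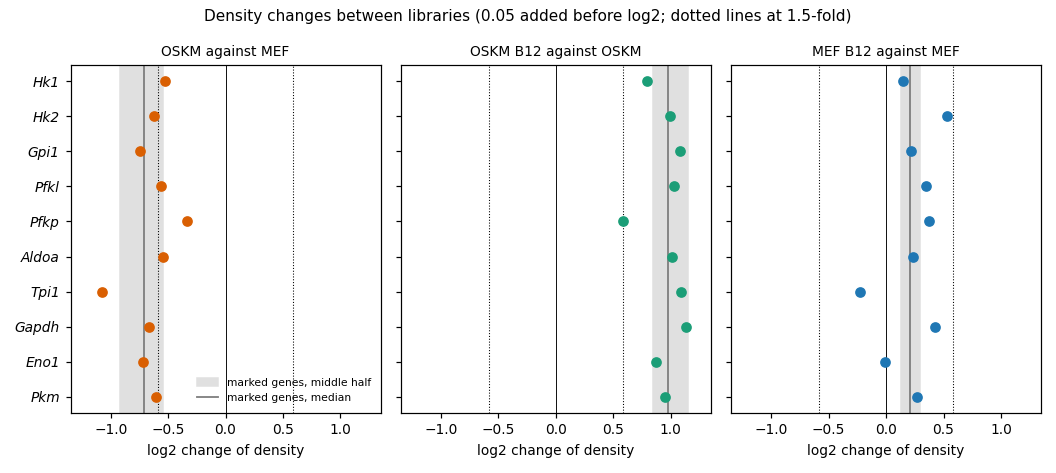
Log2 change of density (0.05 added) of each gene in the 3 comparisons. Grey bands span the quartiles and grey lines mark the medians of the 8766 marked genes, and dotted lines mark 1.5-fold. The points lie left of 0 for OSKM against MEF and right of 0 for OSKM B12 against OSKM. For MEF B12 against MEF they lie right of 0 except Tpi1 and Eno1. After division by the median of the marked genes, however, 8, 3 and 6 of the 10 genes would lie right of 0. The medians of the marked genes would then be 0.056, −0.056 and −0.0027.

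Set side by side with MEF, OSKM B12 had a higher density in all 10 genes, with a median log2 difference of 0.34, beside 0.26 over the marked genes. With 0.05 added, 0 of the 10 were past 1.5-fold, beside 6.96% of the marked genes. After division by the median of the marked genes, 8 of the 10 were higher and 2 lower. Of the 32 marked genes of the other glucose metabolism lists described below, 20 were higher and 12 lower on that scale. Tpi1 was nearest to its MEF level, with a ratio of 1.01 and a counting interval of 0.791 to 1.30. The covered share was higher than in MEF in 7 genes and lower in Gpi1, Tpi1 and Eno1. Over the 10 genes, 91.1% of the MEF peak bases were inside OSKM B12 peaks.

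Other genes of glucose metabolism were taken from lists by function. Of 16 other glycolysis enzyme genes, 8 were marked, and Hkdc1, Aldoc, Pgk2 and Pklr, forms that belong to other tissues, were among those with no peak. Among the 8, 4 were lower by at least 1.5-fold in OSKM than in MEF, 8 were higher in OSKM B12 than in OSKM, and 1 was higher in MEF B12 than in MEF. The shares of all marked genes for these 3 counts, with 0.05 added here and below, were the 68.7%, 95.2% and 3.45% given above. The largest change from MEF to OSKM was −1.12, in Gapdhs, the sperm form of Gapdh, and the smallest was −0.18, in Hk3, which had no peak in OSKM. Hk3 was marked only through OSKM B12, where 11.7% of its body was covered, so it entered the second count through that library. Of 7 genes of glucose and lactate transport and lactate dehydrogenase, 6 were marked, and the 3 counts were 3, 5 and 1. Ldhb, a lactate dehydrogenase gene, had a log2 change of −0.89 from MEF to OSKM, and Slc2a4, the insulin-responsive glucose transporter, had no peak in either. Slc2a4 was the 1 gene of the third count. It was marked only through MEF B12, where 10.2% of its body was covered, so it entered that count through the library where it was high.

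Of 10 regulators of the pathway, 9 were marked, with counts of 5, 7 and 0. Pdk2, a kinase that inhibits pyruvate dehydrogenase, changed by −1.22 from MEF to OSKM, and Pfkfb3, which makes an activator of phosphofructokinase, by −0.31. Of 7 gluconeogenesis genes, 2 were marked, Pck2 and G6pc3, and they changed by −0.49 and −0.25, with counts of 0, 2 and 0. All 7 genes of the pentose phosphate pathway, the branch that yields NADPH and ribose, were marked, with counts of 6, 7 and 0. Among them Tkt changed by −0.44, and Pgls, covered over 25.1% in MEF and 50.4% in OSKM B12, had no peak in OSKM. None of the marked genes of these lists was past 1.5-fold in the opposite direction. The directions rest on the scaling: after division by the median of the marked genes, 17 of the 32 marked genes of these lists were higher in OSKM than in MEF and 14 lower, Slc2a4 having no peak in either, and 17 were higher in OSKM B12 than in OSKM and 15 lower.

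The marked genes outside these lists whose densities over the 4 libraries were nearest to the medians of the 10 genes were Nol10, Kctd18 and C2cd3. Their Euclidean distances on the log2 scale were 0.0576, 0.0597 and 0.0602. Nol10, for example, had densities of 0.299, 0.391, 0.165 and 0.406 in MEF, MEF B12, OSKM and OSKM B12.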

How the data were processed

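H3K36me3 ChIP–seq was analysed from the 4 lists of broad peaks, 1 for each condition. Per the labels and the study's methods, the authors aligned reads of 75 bases to mm10 with Bowtie 0.12.9, kept reads with a single placement, merged the runs, removed duplicates and called peaks with MACS2 2.2.6 in each library against its own input, with q-value cut-offs of 0.05 and 0.1. The deposited pileup is a signal, the mean fragment coverage over a peak. The deposited fold enrichment is a ratio of pileup to input. The authors' files also list the p-value and the q-value as −log10, and only the second was used, to filter peaks.

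Covered share, scaled pileup and density were computed with Python 3.11 and numpy 2.4.6 over gene bodies of GENCODE release M21. Where 2 Ensembl genes carried a symbol, the one that overlaps the RefSeq gene was used. Peaks on unplaced scaffolds (1 to 16 per library) were left out. Log2 changes used a pseudocount of 0.05 scaled pileup, and a change of at least 1.5-fold was counted. Stretches of 75 bases were matched exactly on both strands of the chromosomes of GRCm38.p6. Near matches with mismatches, which can also cost a read its single placement, were not counted. The shares with 1 match are therefore upper limits on the sequence open to tags. The interval arithmetic was tested on simulated data. No test was run, since there was 1 library per condition. The members and gene lists were chosen with earlier results of these data known. Named from each other list were the genes with the highest and lowest change from MEF to OSKM. Alternatives to peak threshold, signal, scaling, pseudocount, gene model, gene part and fold were tried. At 29046913 to 33399267 tags, a gene without a peak had no enrichment detectable at this depth.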

Additional observations from a re-analysis of the deposited data

Results flagged for a closer look

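The change with vitamin B12 had opposite signs without and with the factors in 2 genes. For Tpi1, the log2 change of density was −0.23 in MEF and 1.09 in OSKM, and the counting interval of the ratio in MEF, 0.638 to 1.08, includes 1. For Eno1, it was −0.0068 in MEF and 0.88 in OSKM, and the counting interval of the ratio in MEF, 0.908 to 1.09, includes 1 as well. After division by the median of the marked genes, Eno1 had the same sign in both, −0.24 in MEF and −0.36 in OSKM. The MEF value of Eno1 was above 0 with fold enrichment less 1 (0.086), in the part of the body nearer the TES (0.12) and with the body extended by 1 kb (0.0060). That of Tpi1 was 0.011 with the same extension. The covered share of Tpi1 was 10.1 percentage points lower in MEF B12 than in MEF, and that of Eno1 was 7.16 points lower. On the bases in peaks in all 4 libraries, the ratio of the peak means, MEF B12 to MEF, was 1.03 for Tpi1 and 1.09 for Eno1. With 1 library per condition, these differences between MEF and OSKM were not tested.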

How the results depend on the processing

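No replicate could be left out and no paired analysis was possible because there was 1 library per condition. In every alternative but one, the median log2 change over the 10 genes stayed below 0 for OSKM against MEF and above 0 for both comparisons of B12. The exception was division by the median density of the marked genes of the library, which removes a change common to them and turned the direction for OSKM against MEF and for OSKM B12 against OSKM. There the medians were 0.18 for OSKM against MEF, −0.13 for OSKM B12 against OSKM and 0.0203 for MEF B12 against MEF. Over the marked genes they were 0.056, −0.056 and −0.0027. In each comparison 0 of the 10 genes were past 1.5-fold, beside 10.7%, 9.91% and 1.61% of the marked genes. Of the genes past 1.5-fold from MEF to OSKM, Gpi1 (0.19), Gapdh (0.15), Eno1 (0.22) and Pkm (0.33) changed sign. Of those from OSKM to OSKM B12, Hk1 (−0.15), Gpi1 (−0.16), Pfkl (−0.12), Pfkp (−0.055), Aldoa (−0.17), Eno1 (−0.36) and Pkm (−0.29) did so.

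For OSKM against MEF, the median was −0.80 with peaks of −log10 q of at least 5, −0.77 with fold enrichment less 1 in place of pileup, −0.74 and −0.40 with pseudocounts of 0.01 and 0.2, and −0.41 on bases in peaks in all 4 libraries. The count of genes past the fold was 10 and 2 with those pseudocounts, beside 81.9% and 21.6% of the marked genes. It was 2 on the shared bases, beside 2.85% of the marked genes with such bases. It was 10 at the lower fold tried and 1 at 2-fold, beside 93.0% and 18.7% of the marked genes. For OSKM B12 against OSKM, the median was 1.57 with the stricter peaks, 0.87 without division by tags, and 1.14 and 0.71 with the pseudocounts. It was 0.92 in the part of the body nearer the TES than the TSS and 0.73 on the shared bases. At 2-fold 5 genes were counted, beside 46.5% of the marked genes. For MEF B12 against MEF, the median was 0.10 without division by tags, 0.18 with a pseudocount of 0.2 and 0.17 on the shared bases. The count there was 2 with the stricter peaks and 4 at the lower fold, beside 18.0% and 18.9% of the marked genes. It was 1 with fold enrichment, 1 with a pseudocount of 0.01 and 1 in the part nearer the TES. The shares of the marked genes for these were 5.52%, 7.04% and 5.30%. With no pseudocount, chosen after the data were seen, the medians were −0.78, 1.19 and 0.28. The genes past 1.5-fold were then 10, 10 and 2, beside 84.6%, 98.7% and 8.80% of the marked genes. The gene models, the 1 kb extension, peaks with at least 2-fold enrichment and 2 other alternatives added after the data were seen, the second Aldoa gene and leaving out bases shared with other genes, left the counts within 1.5 times. Depth limits Tpi1 most, with 52.6 estimated tags in OSKM. The cause of these differences was not tested.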
